A study of Mus musculus with 37 samples.

Results

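The transcripts described are those of the mouse mitochondrial genome, taken as every row on chromosome MT of the deposited count table, all of which carry a symbol that starts with mt-. There were 13 such genes among 35542. All 13 code for proteins. The annotation used for this comparison, GENCODE M21 on GRCm38, places 37 genes on the mitochondrial genome, of which 2 are ribosomal RNAs, 22 are transfer RNAs and 13 code for proteins. The rRNA and tRNA genes were not analysed here, so the ranking below is of coding genes alone.

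RNA-seq was performed on poly(A) RNA from single tailbuds of 37 mouse embryos at E8-8.5, each counted at 6 to 11 somites. All embryos were C57BL/6/Cast F1 hybrids. The wt group held 21 embryos (Smchd1[fl/+], 13 females and 8 males) and the maternally deleted (matdel) group held 16 (Smchd1[del/+], 11 females and 5 males), whose mothers had lost Smchd1 in the oocyte through MMTV-Cre. SMCHD1 is a chromatin protein that silences genes in the nucleus, and matdel embryos still carry 1 functional paternal copy of its gene. The group thus models loss of the maternal supply and not absence of the protein. Matdel embryos are also heterozygous for the deleted allele, and wt embryos are not. No heterozygous embryos with a normal maternal supply are among these libraries. Loss of the maternal supply and heterozygosity therefore cannot be told apart here. The mothers differed too: the paper gives those of matdel embryos as Smchd1[del/fl] with MMTV-Cre[T/+] and those of controls as Smchd1[fl/fl] with MMTV-Cre[+/+]. These differences between the mothers cannot be told apart from loss of the maternal supply either. MMTV-Cre is driven by a mammary tumour virus promoter that is also active outside the oocyte. A floxed allele was carried by the controls, and both groups had mothers of C57BL/6 background and Cast sires, so the mitochondrial genome, which is passed on by the mother, came from the same side of the cross in both.

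Mitochondrial DNA is a small circle that is copied into RNA from both strands as long precursors. These are cut largely at the tRNAs that lie between the coding genes, after which each messenger acquires its own stability, and so transcripts that were made together can end at very different levels. Every protein the genome encodes is a subunit of the oxidative phosphorylation machinery in the inner membrane: the mt-Nd genes of complex I, mt-Cytb of complex III, the mt-Co genes of complex IV, and mt-Atp6 and mt-Atp8 of complex V. The remaining subunits, all of complex II, and the proteins that transcribe, cut and translate mitochondrial RNA are encoded in the nucleus. Pieces of mitochondrial DNA have also been copied into nuclear chromosomes during evolution, and where such a copy is recent a short read cannot be assigned to either place from its letters.

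The clearest such copy touches the ranking of the members, so its letters are given before the values. On chromosome 1, minus strand, 7 annotated pseudogenes lie in mitochondrial order across chr1:24611535-24616197, a block of 4663 bases that runs parallel to bases 6381 to 11042 of the mitochondrial genome. In the annotated transcripts, 4149 bases could be compared, and 7 of them differed, an identity of 99.8%. The beginning of mt-Nd3, which encodes a small complex I subunit, is shown with the matching stretch of its pseudogene Gm28438, because 1 base in the whole pseudogene tells them apart (T3C, counted from the start of mt-Nd3 and shown in capitals).
mt-Nd3, chrM:9459-9518, plus strand: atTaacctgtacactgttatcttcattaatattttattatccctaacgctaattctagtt
Gm28438, chr1:24613060-24613119, minus strand: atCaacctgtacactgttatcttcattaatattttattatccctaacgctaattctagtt

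The edge of the block lies in mt-Co1, which encodes the catalytic subunit of complex IV. The other 6 differences fall there, all within the stretch below, and are in capitals; positions count from the start of mt-Co1 (T1056A, C1057T, A1059G, A1060G, C1062A and A1066T).
mt-Co1, chrM:6381-6440, plus strand: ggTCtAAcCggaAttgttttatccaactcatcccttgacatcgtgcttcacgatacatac
Gm29216, chr1:24616138-24616197, minus strand: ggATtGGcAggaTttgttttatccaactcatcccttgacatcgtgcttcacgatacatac

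The start of mt-Co2, which encodes the subunit that receives electrons from cytochrome c, is shown because it is matched by copies of different closeness. The copy on chromosome 1 is the same in every base, and the one on chromosome 2 differs at the bases in capitals.
mt-Co2, chrM:7013-7072, plus strand: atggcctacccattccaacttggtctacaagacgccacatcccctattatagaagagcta
Gm28661, chr1:24615506-24615565, minus strand: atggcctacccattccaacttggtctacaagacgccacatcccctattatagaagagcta
Gm13341, chr2:22587903-22587962, minus strand: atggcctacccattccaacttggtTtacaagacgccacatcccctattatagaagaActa

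The sequences and positions are those of GENCODE M21 transcripts on GRCm38. All 13 members had the same coordinates in that annotation and in the count table.

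The libraries held 916444 to 80579115 counts each, with a median of 12845991, and the fewest were in matdel at 6 somites replicate 3. Smchd1 itself was lower in matdel embryos, with 64.0 to 112 CPM (counts per 1000000 counts of the library) after scaling by the trimmed mean of M values (TMM), median 89.5, against 105 to 204 in wt (median 150), and all 16 matdel embryos lay below the wt mean of their stage (log2 difference -0.74, SE 0.075; edgeR quasi-likelihood test, adjusted p = 1.45e-07). Tailbud and presomitic mesoderm markers such as T, Tbx6 and Cdx2 were detected in every library and summed to 671 to 1717 CPM. This sum and the levels that follow, up to the tests, are CPM without that scaling. A pair of matdel libraries at 6 somites stood apart in the ribosomal RNA locus on chromosome 17, which took 2.77% of the counts of replicate 1 and 1.82% of those of replicate 2. In bulk tissue, a lower value can mean fewer cells of a type or less RNA per cell, and these cannot be told apart.

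The coding genes fell into a high and a low class with a wide gap between them. To compare genes with each other, levels are given as CPM per kilobase of gene length. The high class held 7 members: mt-Co1 (median 1754 CPM per kilobase over the 37 libraries), mt-Cytb (1664), mt-Nd1 (1582), mt-Nd2 (916), mt-Nd5 (539), mt-Nd6 (465) and mt-Nd4 (284). The low class held 6: mt-Co2 (14.1), mt-Nd3 (9.54), mt-Atp8 (3.74), mt-Atp6 (2.43), mt-Co3 (2.28) and mt-Nd4l (0.239). In 37 of 37 libraries every high member was above every low member. Within a library the lowest high member exceeded the highest low member 9.37-fold to 47.1-fold, with a median of 18.3-fold.

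**Figure D1:**
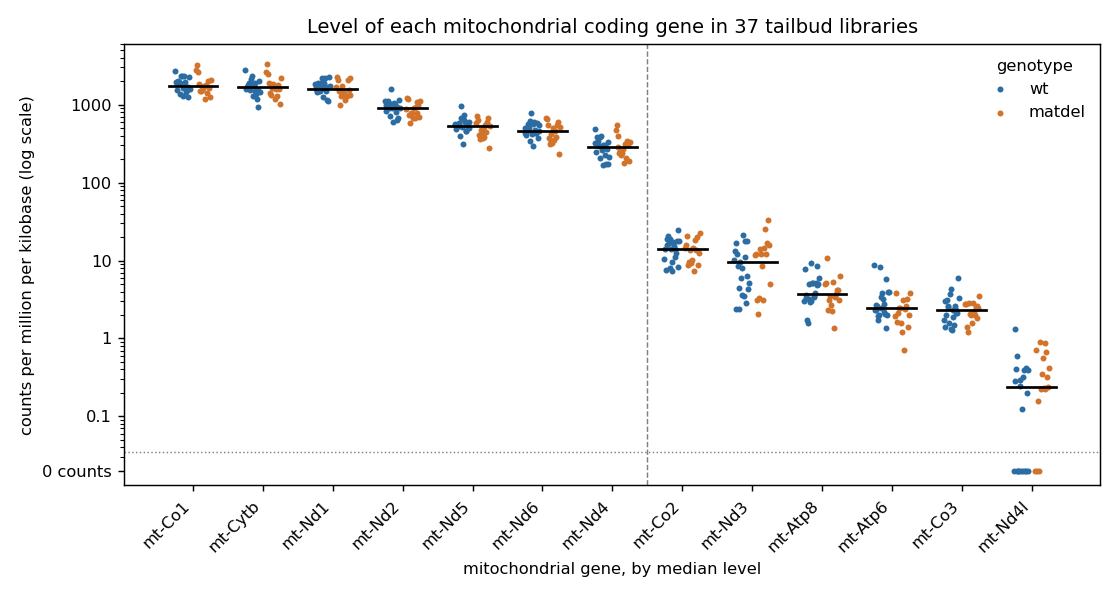
Level of each mitochondrial coding gene in each of the 37 libraries, in CPM per kilobase on a log axis, with wt and matdel embryos in different colours. The 7 high members have medians from 284 to 1754 and the 6 low members from 0.239 to 14.1, and no point of 1 class reaches the other class.

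The upper 3 members changed places between embryos. mt-Co1 spanned 1189 to 3208 CPM per kilobase, mt-Cytb, the cytochrome b of complex III, spanned 936 to 3279, and mt-Nd1, a membrane subunit of complex I, spanned 998 to 2278. mt-Co1 was the highest member in 21 libraries, mt-Cytb in 8 and mt-Nd1 in 8. mt-Co1 was above mt-Cytb in 27 of 37 libraries and mt-Cytb above mt-Nd1 in 24, so the order of these neighbours was not fixed. Below them it was nearly so: mt-Nd1 was above mt-Nd2, mt-Nd2 above mt-Nd5 and mt-Nd6 above mt-Nd4 in 37 of 37 libraries, and mt-Nd5 was above mt-Nd6 in 35. mt-Nd2, mt-Nd4 and mt-Nd5 are the antiporter-like subunits of the complex I membrane arm, and mt-Nd6 is the single coding gene on the other strand. mt-Nd6 shares bases 13552 to 13565 with mt-Nd5 on the opposite strand, and counting by strand is not given in the sources used here. Reads from RNA of either strand therefore cannot be told apart over that stretch or over the rest of mt-Nd6. The level and place of mt-Nd6 should be read as uncertain for that reason.

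By plain CPM, mt-Co1 ranked at place 10 among all 35542 genes, mt-Cytb at 22, mt-Nd1 at 32, mt-Nd5 at 73 and mt-Nd2 at 79. mt-Nd4 ranked at 352 and mt-Nd6, a short gene, at 763. The low members lay far down the same list, from mt-Co2 at 9770 to mt-Nd4l at 17531. In reads, mt-Co2 had 13 to 402 counts per library, mt-Atp6 1 to 212, mt-Nd3 1 to 225, mt-Co3 1 to 81 and mt-Atp8 1 to 84. mt-Nd4l had 0 counts in 12 libraries and at most 3 in any, 43 in all. A count of 0 allows up to 3 counts, which in those libraries is 0.159 to 3.27 CPM.

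Counted by complex, the 7 complex I members took a median of 46.9% of all mitochondrial counts (38.7% to 50.8%). mt-Cytb, the only complex III member, took 21.5% (17.3% to 26.5%). The 3 complex IV members took 31.8% (28.7% to 35.9%), nearly all from mt-Co1, whose median level was 124-fold that of mt-Co2 and 768-fold that of mt-Co3, although the 3 proteins they encode enter complex IV together. The complex V genes mt-Atp6 and mt-Atp8, which overlap each other on the same strand, took 0.0292% (0.0123% to 0.0658%). mt-Co1, mt-Cytb and mt-Nd1 together made 70.9% of the counts (65.7% to 76.0%), and the 6 low members 0.208% (0.113% to 0.301%). The shares are of counts as deposited, and the ratios are of medians in CPM per kilobase. Where they include low members they are uncertain, for the reason given next.

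The low class coincided with the block on chromosome 1. The 6 members that lie wholly inside the mitochondrial stretch matched by the block are the 6 low members. mt-Co1 and mt-Nd4, which cross its edges, are high members, and the 5 other high members lie outside it. Each gene was cut into all windows of 75 bases, the read length, and the windows that also occur in an annotated nuclear transcript were counted. They made 99.9% of the windows of mt-Co3, 99.5% of mt-Co2, 99.5% of mt-Atp6, 98.7% of mt-Nd4l and 97.8% of mt-Nd3. In the high class the shares were 61.5% for mt-Nd4, 39.8% for mt-Co1, 5.7% for mt-Nd2 and 1.7% for mt-Nd5. They were 0 for mt-Nd1, mt-Nd6 and mt-Cytb. mt-Atp8 also had a share of 0, but it lies in the block, at mitochondrial bases 7766 to 7969. Gm10925, whose match begins at base 7927, covers the end of it in a stretch shorter than a window, and the nuclear sequence opposite the rest was not used here.

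How reads that match more than 1 place were counted is not given in the sources used here. The part of such reads in the levels was not tested, so the level of a low member, and of the covered parts of mt-Nd4 and mt-Co1, should be read as uncertain. Divided by windows without a nuclear match in place of length, the high members had medians of 3062 CPM per 1000 such windows for mt-Co1, 1779 for mt-Cytb, 1715 for mt-Nd1, 1046 for mt-Nd2, 779 for mt-Nd4, 571 for mt-Nd5 and 542 for mt-Nd6. On this scale, chosen after the values were seen, mt-Nd4 moved from place 7 to place 5 among the high members and the other 6 kept their order. The gap between the classes did not hold on it: mt-Co2 stood at 3218, mt-Co3 at 1790, mt-Nd3 at 553 and mt-Atp6 at 552, all above mt-Nd6, and mt-Co2 was above mt-Co1. mt-Nd4l stood at 23.6 and mt-Atp8 at 5.87. The low members other than mt-Atp8 have 1 to 6 such windows each, so their values on this scale rest on very little sequence. For mt-Atp8 130 windows were counted, but without the nuclear sequence opposite most of it. How many of them lack a nuclear match is therefore not known, and its value on this scale is uncertain as well.

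**Figure D2:**
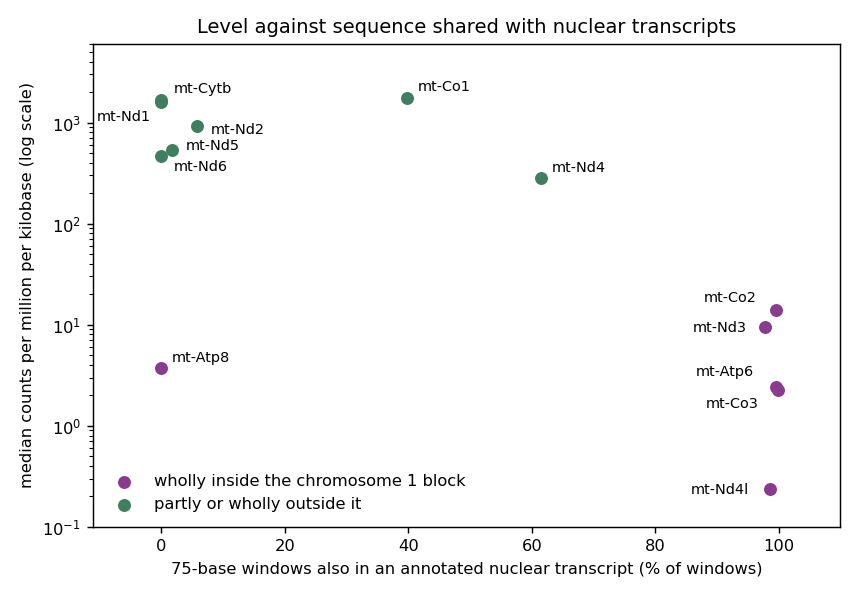
Median level of each member, in CPM per kilobase on a log axis, against the percent of its 75-base windows that also occur in an annotated nuclear transcript. Of the 6 low members 5 sit at 97.8% or more, mt-Atp8 sits at 0, and no high member exceeds 61.5%.

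Low members also varied more between embryos. The coefficient of variation of CPM over the 37 libraries was 0.213 for mt-Nd1, 0.223 for mt-Nd2, 0.252 for mt-Co1 and 0.310 for mt-Nd4. It was 0.333 for mt-Co2, 0.480 for mt-Atp8, 0.588 for mt-Atp6 and 0.693 for mt-Nd3. Counting error is larger in these genes, and its part in the spread was not tested.

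Together the 13 members took 0.598% to 1.45% of the counts of a library, with a median of 0.873%. Reads set this share closely: the 95% Wilson interval was widest for matdel at 6 somites replicate 3, 1.20% (1.18% to 1.23%), and covers counting error only. For comparison, the nuclear genes of oxidative phosphorylation took 0.693% to 1.24% (median 0.917%) and the mitochondrial ribosomal proteins, also nuclear, 0.341% to 0.520% (median 0.410%). The ratio of the mitochondrial share to that of the nuclear oxidative phosphorylation genes ran from 0.598 to 1.84 with a median of 0.968. The share therefore varied 2.43-fold between embryos where that of its nuclear partners varied 1.78-fold.

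The genotypes overlapped in this share. It was 0.617% to 1.27% in wt (median 0.902%) and 0.598% to 1.45% in matdel (median 0.842%), and 10 of 16 matdel embryos lay below the wt mean of their stage. Averaged over stages, matdel minus wt was -0.0294 percentage points, against an SD of 0.205 points over all embryos. It turned to 0.0636 with female embryos alone, and with each library left out in turn it ran from -0.0554 (without matdel at 6 somites replicate 2) to -0.00961 (without matdel at 11 somites replicate 1). The median of all embryos with 6 somites was 1.05%, and those of the later stages lay between 0.803%, for 7 somites, and 0.875%, for 8. At 8 somites both matdel embryos (0.795% and 0.836%) lay below the 3 wt embryos (0.875%, 1.11% and 1.27%), and at each other stage the genotypes overlapped. Both matdel embryos at 8 somites and the wt embryo at 0.875% were female, and the wt embryos at 1.11% and 1.27% were male. In those higher wt values a contribution of sex cannot be told apart from one of genotype.

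The stage with 6 somites held the 3 highest matdel values. The 4 matdel embryos at 6 somites had shares of 1.19%, 1.45%, 1.20% and 0.853%, of which the former 2 are the libraries with most ribosomal RNA, and the 4 wt embryos had 1.23%, 0.908%, 0.821% and 0.902%. A share above 1% was found in 4 of 8 libraries at 6 somites and in 7 of 29 at later stages, so high values were not confined to the youngest embryos. All 8 embryos at 6 somites were female, and at that stage a contribution of sex cannot be told apart from one of stage.

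**Figure D3:**
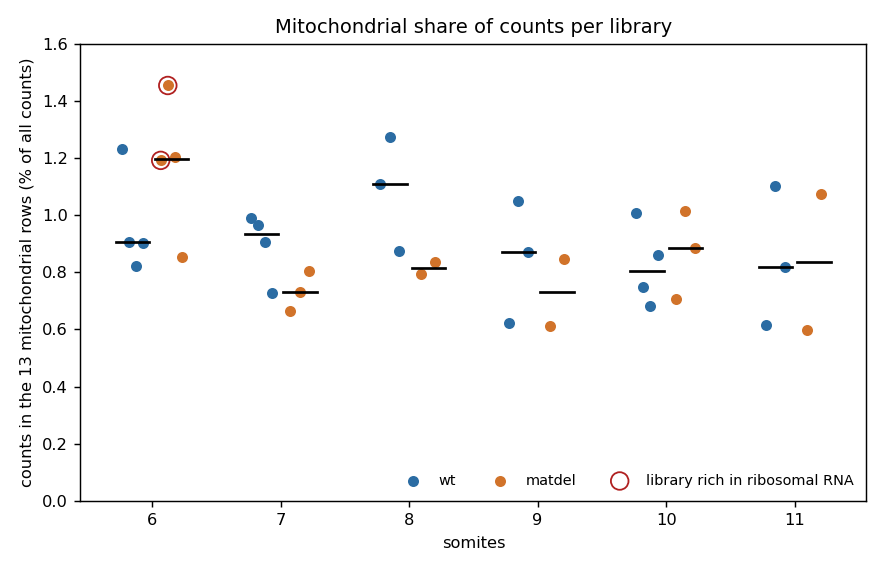
Percent of each library's counts on the 13 mitochondrial genes, by somite number, for wt and matdel embryos, with bars at the medians and circles around the 2 matdel libraries with most ribosomal RNA. The ranges of the genotypes overlap at each stage but 8 somites, and the highest value, 1.45%, is a matdel embryo at 6 somites.

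Whether any mitochondrial transcript differed between matdel and wt embryos was tested with all stages together, with terms for each somite stage and for sex. Levels in the tests are TMM-scaled CPM. Of the 13 members, 12 passed the filter on low counts, and mt-Nd4l did not. None of the 12 passed the threshold of an adjusted p of 0.05 in edgeR's quasi-likelihood test, where 0.0125% of all 15978 genes did. At an unadjusted p of 0.05, 1 member was below it, where 5.66% of all genes were. The likelihood ratio test of edgeR and the Wald test of DESeq2 also called 0 members.

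mt-Atp6, which encodes the proton channel subunit of complex V, had the smallest p. It stood at 0.917 to 6.06 CPM in wt (median 1.74) and 0.470 to 2.67 in matdel (median 1.52). The ranges overlapped, and 5 wt embryos lay above the highest matdel embryo. The log2 difference, matdel minus wt, was -0.50 (SE 0.23, 95% interval -0.96 to -0.03, adjusted p = 0.867). mt-Nd3 was next, with 0.823 to 7.56 CPM in wt (median 2.73) and 0.699 to 11.7 in matdel (median 4.19), a difference of 0.51 (SE 0.31, adjusted p = 0.874). Both are low members inside the nuclear block.

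The high members were estimated more closely. mt-Co1 stood at 1931 to 4281 CPM in wt (median 2902) and 1797 to 5121 in matdel (median 2585). mt-Cytb stood at 1082 to 3284 in wt (median 1927) and 1181 to 3876 in matdel (median 1848). mt-Nd1 stood at 1090 to 2209 in wt (median 1630) and 924 to 2253 in matdel (median 1388). Matdel embryos were spread over the wt range in each, and for all 13 members the ranges of the genotypes overlapped.

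On the log2 scale, the 7 high members differed by -0.17 to 0.01 between the genotypes, and their 95% intervals together spanned -0.40 to 0.27. mt-Nd5 was the lowest (-0.17, SE 0.11, adjusted p = 0.882) and mt-Nd4 the highest (0.01, SE 0.13, adjusted p = 0.999). Over the 12 members tested, 9 differences were below 0, with a median of -0.10, while 50.9% of all genes were below 0, with a median of -0.0023. The members share a genome and its precursors and are not separate observations of the genotype.

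The stages were also tested in 2 windows. At 6 to 8 somites (11 wt and 9 matdel) no member passed, where 0.00639% of genes did, and 0 members had an unadjusted p under 0.05, against 7.77% of genes. mt-Nd2 had the smallest p (-0.17, SE 0.12, adjusted p = 0.756), followed by mt-Atp6 (-0.40, SE 0.33, adjusted p = 0.802). With female embryos alone the mt-Nd2 difference was 0.0025, and without matdel at 7 somites replicate 1 it was -0.081. Without wt at 6 somites replicate 1 the mt-Atp6 difference was -0.087. At 9 to 11 somites (10 wt and 7 matdel) no member passed, where 0.00635% of genes did, and again 0 had an unadjusted p under 0.05, against 1.88% of genes. mt-Nd3 (0.81, SE 0.42) and mt-Atp8 (-0.45, SE 0.28) had the smallest p there, with an adjusted p of 0.9998 for both. The former was 0.42 without matdel at 10 somites replicate 3 and the latter -0.27 without matdel at 9 somites replicate 1. DESeq2 and the likelihood ratio test called 0 members in both windows.

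**Figure D4:**
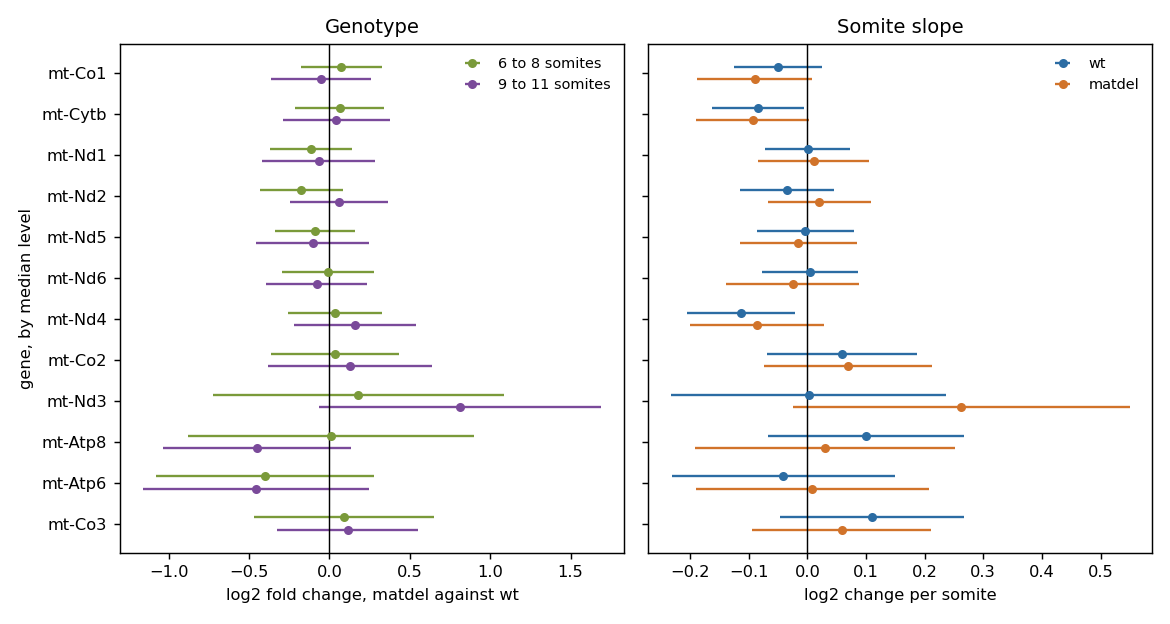
Log2 estimates with 95% intervals for the 12 tested members, at left for the genotype difference (matdel minus wt) in each stage window and at right for the slope per somite within each genotype. Intervals are narrower for each high member, in the upper 7 lines, than for any low member, and none of the estimates passed the adjusted threshold.

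Between 6 and 11 somites the tailbud continues to lay down the trunk, and the change of each transcript per somite was asked for next. In wt, the slope of no member passed the adjusted threshold, where 6.64% of 15148 genes did, and 2 members had an unadjusted p under 0.05, where 21.4% of genes did. These were mt-Nd4 (log2 slope per somite -0.11, SE 0.045, adjusted p = 0.136) and mt-Cytb (-0.085, SE 0.038, adjusted p = 0.192). In matdel, no slope passed, where 3.07% of 15477 genes did, and 0 members had an unadjusted p under 0.05, where 17.5% of genes did. mt-Cytb (-0.093, SE 0.046, adjusted p = 0.304) and mt-Co1 (-0.090, SE 0.047, adjusted p = 0.332) came nearest. DESeq2 and the likelihood ratio test called 0 members in either genotype.

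The difference between the genotypes' slopes was tested by an interaction term. No member passed, as no gene of 15978 did (0%), and 0 members had an unadjusted p under 0.05 against 3.92% of genes. DESeq2 and the likelihood ratio test called 0 members. The smallest p values were those of mt-Nd3 (0.21, SE 0.18) and mt-Co1 (-0.055, SE 0.061), with an adjusted p of 0.9998 for both. The intervals of the high members' slope differences together spanned -0.19 to 0.16 log2 per somite.

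Since mt-Cytb was among the nearest to the threshold in each genotype, a single slope over all 37 embryos, with genotype and sex as terms, was added after the data had been seen. mt-Cytb then fell by 6.87% per somite (log2 slope -0.10, SE 0.031, 95% interval -0.17 to -0.04, adjusted p = 0.0188), which is 0.701-fold over 5 somites. mt-Nd4 fell by 7.54% per somite (-0.11, SE 0.036, adjusted p = 0.0253), 0.676-fold over 5 somites. These were 2 of 12 members, where 18.6% of 15575 genes passed in either direction and 9.39% passed downward, so the count is near that of all genes. At an unadjusted p of 0.05 there were 3 members, where 31.8% of genes were. mt-Co1 did not pass (-0.078, SE 0.030, adjusted p = 0.0637). All 7 high members had slopes below 0, down to a slope of -0.006 for mt-Nd1 (adjusted p = 0.912), and 4 of 5 low members had slopes above 0, none of which passed.

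The values of mt-Cytb place most of the decline at its beginning. At 6 somites the matdel embryos had 3136, 3876, 2799 and 2136 CPM and the wt embryos 3284, 1804, 1888 and 1935. Over both genotypes the median fell from 2467 with 6 somites to 1828 with 7, stood at 2089 with 8, and was 1722, 1766 and 1701 in the later 3 stages. At 11 somites the wt embryos had 1082, 2353 and 1701 and the matdel embryos 1181 and 2494. The highest values thus lay at 6 somites, while 11 somites held both the lowest and some of the higher ones.

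mt-Nd4 was alike, with 671, 788, 551 and 384 CPM in matdel and 685, 437, 338 and 437 in wt at 6 somites. Its medians over both genotypes, from the 6-somite to the 11-somite embryos, were 494, 344, 369, 382, 370 and 300. For mt-Co1 they were 3540, 2360, 2609, 2725, 2560 and 2517. mt-Nd1 had no such start, with 1624, 1419, 1673, 1260, 1478 and 1663. From 7 somites on, medians of all 4 moved up and down within the spread of single embryos.

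Without the 6-somite embryos neither slope passed (mt-Cytb -0.046, adjusted p = 0.533; mt-Nd4 -0.036, adjusted p = 0.724), and the mt-Cytb slope in matdel alone turned to 0.024. With female embryos alone neither passed (mt-Cytb -0.087, adjusted p = 0.0724; mt-Nd4 -0.094, adjusted p = 0.107). Without the 2 matdel libraries with most ribosomal RNA, neither passed either (mt-Cytb -0.070, adjusted p = 0.109; mt-Nd4 -0.076, adjusted p = 0.148). With each library left out in turn, mt-Cytb passed in 37 of 37 refits (adjusted p 0.00684 to 0.0494) and mt-Nd4 in 33. mt-Nd4 missed the threshold without wt at 6 somites replicate 1 (adjusted p = 0.0622), without matdel at 6 somites replicate 1 (0.0536) or replicate 2 (0.0640), and without matdel at 11 somites replicate 1 (0.0518). mt-Co1 passed in 6 of the refits.

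**Figure D5:**
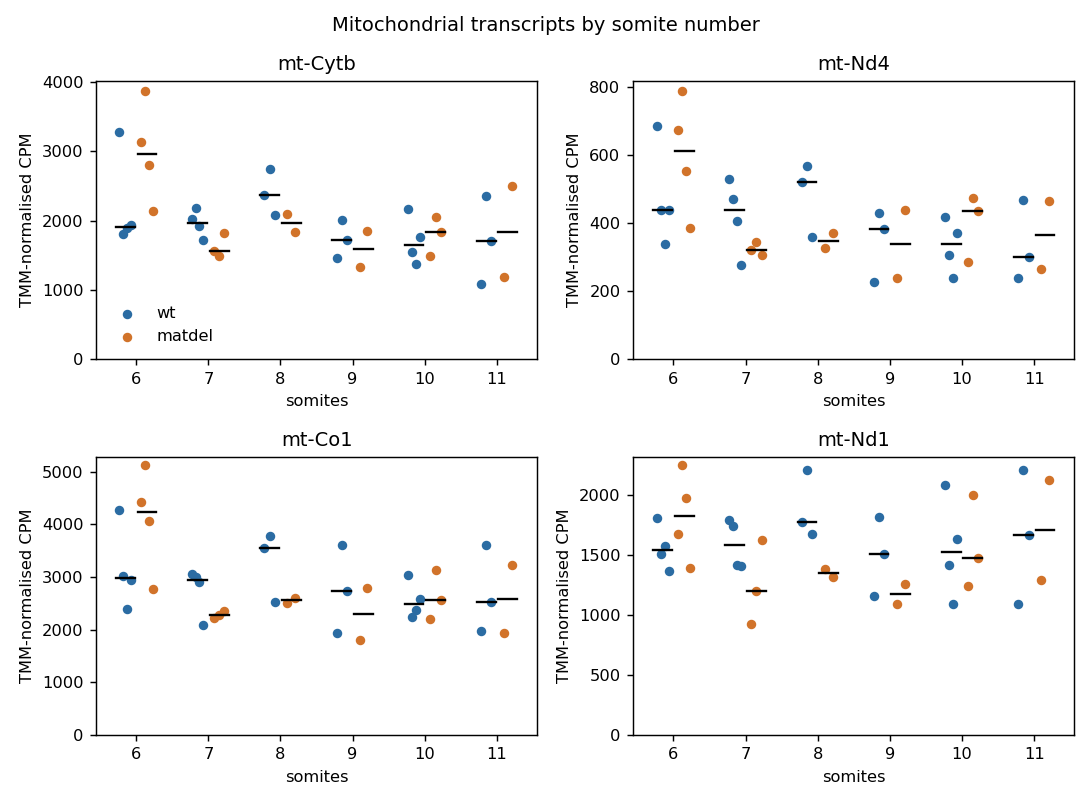
TMM-scaled CPM of mt-Cytb, mt-Nd4, mt-Co1 and mt-Nd1 in every embryo by somite number, with wt and matdel in different colours and a bar at the median of each genotype and stage. For mt-Cytb, mt-Nd4 and mt-Co1 the highest embryo of all, at 3876, 788 and 5121 CPM, is a matdel embryo with 6 somites.

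Markers of other cell types moved with somite number too. The counts of markers that fell or rose are from the single slope over all embryos. In it, 18.6% of 15575 genes passed in either direction and 9.39% passed downward. Those of visceral endoderm (Afp, Ttr, Apob and others, 7 genes, all tested) summed to 7.29 to 4037 unscaled CPM over all libraries, with medians of 1275 at 6 somites and 60.5 at 11, and 3 of the 7 fell. Those of primitive erythroid cells summed to 10.3 to 4166 CPM, with medians of 108 at 6 somites and 1161 at 11, and 5 of 7 rose. Those of endothelium summed to 193 to 439 CPM, with medians of 219 and 300, and 4 of 7 rose. Apoa4 was at 0 in 1 library, and Klf1, Gata1 and Emcn in 3 each. The part of these cells in the mitochondrial slopes was not tested.

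With sex as the comparison (male minus female), no member passed, where 0.219% of 15978 genes did, and 0 had an unadjusted p under 0.05, where 3.3% of genes did. DESeq2 and the likelihood ratio test called 0 members. The smallest p values were those of mt-Nd3 (0.57, SE 0.37) and mt-Atp6 (0.32, SE 0.26), with an adjusted p of 1 for both. The high members differed by -0.05 to 0.09.

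The nuclear genes that work with the mitochondrial genome gave the background for these values. By genotype, no gene passed in any of 10 lists: the nuclear subunits of complexes I, II, III, IV and V (75 genes tested in all), mitochondrial DNA transcription and replication (16), RNA processing and stability (21), aminoacyl-tRNA synthetases (17), mitochondrial ribosomal proteins (77) and regulators of biogenesis (8). Their median log2 differences lay between -0.027 and 0.042. The genes of smallest p in the complexes were Ndufb2 (0.27), Sdha (0.02), Uqcrc1 (0.70), Cox8a (0.25) and Atp5d (0.20), each with an adjusted p of 0.867 except Sdha with 0.963. In the other lists they were Polrmt, the mitochondrial RNA polymerase (0.16), Trmt10c, a subunit of the enzyme that cuts tRNAs from the precursors (-0.14), Rars2 (-0.11), Mrps18a (-0.11) and Gabpa (-0.14), each with an adjusted p of 0.867.

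Along the somites, some genes of the list of RNA processing and stability fell, and most of the list did not pass. In wt, 3 of its 21 genes fell and 0 rose, where 3.51% of all genes fell: Grsf1, whose product binds RNA in mitochondrial RNA granules (log2 slope -0.23, adjusted p = 7.18e-05), Rexo2, a nuclease of short RNA fragments (-0.066, adjusted p = 0.046), and Supv3l1, a helicase of the RNA-degrading complex (-0.045, adjusted p = 0.0481). In matdel, where 3.07% of all genes passed in either direction, Grsf1 fell (-0.19, adjusted p = 0.00163) and no other gene of the list passed. With all embryos together, 5 of 21 fell and 0 rose, where 9.39% of all genes fell, and the 4 of smallest p were Grsf1 (-0.21, adjusted p = 6.07e-09), Rexo2 (-0.086, adjusted p = 0.000444), Tbrg4 (-0.054, adjusted p = 0.0156) and Fastkd3 (-0.051, adjusted p = 0.0205). The last 2 encode members of the FASTK family of mitochondrial RNA-binding proteins.

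In the remaining lists, with all embryos together, 3 of 7 tested regulators of biogenesis fell, where 9.39% of all genes did. They were Myc (-0.099, adjusted p = 0.00105), Ppargc1b (-0.24, adjusted p = 0.0224) and Pprc1 (-0.045, adjusted p = 0.0479). So did 2 of 17 aminoacyl-tRNA synthetases (Tars2 and Sars2). Below the share of all genes were 2 of 77 ribosomal proteins (Mrps18b and Mrpl21), 1 of 36 subunits of complex I (Ndufb3, -0.070) and 1 of 15 of complex V (Atp5g2, -0.060). None of these lists held a gene that rose. No gene passed in complexes II, III and IV or in mitochondrial DNA transcription and replication. Ppargc1b and Tars2 also fell in wt alone (-0.33, adjusted p = 0.0116, and -0.079, adjusted p = 0.00618), where 3.51% of all genes fell. Ndufb1-ps of the complex I list rose in matdel alone (0.081, adjusted p = 0.0264), where 3.07% of all genes passed in either direction.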

How the data were processed

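Single-end reads of 75 bases from poly(A) libraries (TruSeq kits, stranded or not; the kit of each library is not stated) were trimmed with Trim Galore 0.4.4, aligned to GRCm38 with HISAT2 2.0.5 and counted per gene in SeqMonk, as the submitters' processing notes and the paper's methods give it. The values used are the raw counts per gene deposited by the authors, 35591 rows of which 49 repeated an identifier and were dropped. A deposited table of log2 RPKM values for Hox genes and a table of the authors' own comparisons (fold changes and p-values) were not used.

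Levels are CPM, or CPM per kilobase of gene length. Tests used edgeR 4.0.16 (filterByExpr with a minimum count of 10, TMM, quasi-likelihood F test) in R 4.3.3 with limma 3.58.1, over all genes, two-sided, with Benjamini-Hochberg adjustment at 0.05. Sex was a term in each, and so was somite stage in the tests of genotype and sex. DESeq2 1.42.0 was an alternative. The scripts were tested on simulated counts. Where no member passed, the 2 of smallest p were named, and up to 4 genes per nuclear list past the threshold or else the 1 of smallest p. The members and lists were chosen with earlier results of these data known. Embryos were labelled as separate samples, and p-values measure the spread between them. The labels name no batch.

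Depth was 916444 to 80579115 counts per library. The high members had at least 261 counts in each library, whereas the low members had 0 to 402. Alternatives were other size factors, no filter, no sex term, females alone, nuclear genes alone for scaling, a replicate block, and leaving out libraries or stages.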

Additional observations from a re-analysis of the deposited data

Results flagged for a closer look

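Among the 56 sets of 4 embryos of 1 genotype and stage (wt at 6, 7 and 10 somites and matdel at 6, for each of the 13 members and for their summed share of the counts), 5 held an embryo far from the other 3 by Dixon's criterion, where about 2.8 would be expected by chance. The summed share had none. In wt at 6 somites, replicate 1 was high for mt-Cytb, at 3280 TMM-scaled CPM against 1804 to 1935, and for mt-Atp6, at 6.06 CPM against 1.57 to 1.83. In the same group replicate 2 was high for mt-Atp8, at 1.57 CPM against 0.621 to 0.725. In wt at 7 somites, replicate 4, the only female of its group, was low for mt-Co1, at 2100 CPM against 2902 to 3060. In that group replicate 1 held the single mt-Nd4l count, 0.174 CPM against 0 in the others. A lone count among zeros always meets this criterion, so that set says nothing, and 4 of the 5 remain without it. In the test of the difference in somite slope between the genotypes, no member passed.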

How the results depend on the processing

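Over all alternatives and left-out libraries, the count of members called stayed at 0 for genotype at all stages and in both stage windows, for sex, for the slope in matdel and for the difference in slopes. In wt it became 1 with female embryos alone (mt-Co2, rising by 0.17 log2 per somite, adjusted p = 0.0441). The single slope over all embryos, an alternative chosen after seeing the data, called 2 members. It called 1 to 3 with each library left out in turn, 0 without the 6-somite embryos, without the 2 libraries with most ribosomal RNA or with females alone, and 1 without the 10-somite embryos. The main fits called 6.64% of all genes for the slope in wt and 18.6% for the single slope. The share of all genes called in each refit is not given here, so changes in these counts cannot be set against it. Values that changed sign were mt-Nd2 by genotype at 6 to 8 somites with females alone (0.0025), mt-Cytb and mt-Co1 slopes in matdel without the 6-somite embryos (0.024 and 0.042), the mt-Co1 slope difference without the 2 libraries with most ribosomal RNA (0.015), mt-Nd3 by sex with the replicate block (-0.10) and the share difference with females alone (0.0636). The cause of these changes was not tested. The share difference, matdel minus wt, was -0.0554 to -0.00961 points with each library left out. Leaving out 1 library also took the mt-Cytb slope in wt to -0.049 (wt at 6 somites replicate 1), that in matdel to -0.062 (6 somites replicate 2) or -0.15 (11 somites replicate 2), the mt-Co1 slope in matdel to -0.14 (11 somites replicate 2), the mt-Nd3 slope difference to 0.12 (matdel at 10 somites replicate 3), the mt-Co1 slope difference to between -0.10 and -0.023, and mt-Atp6 by sex to 0.16 or 0.49 (wt at 8 somites replicate 1 or 10 somites replicate 4), none of which had passed the threshold.

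No pairing of the embryos by replicate number was seen: of 16 same-number pairs 4 had a correlation over 0.1 (-0.286 to 0.582), and 4 of 16 matdel embryos correlated best with their own number. The correlations are of deviations from group means. With 2 matdel embryos at 8, 9 and 11 somites these mirror each other, so those stages say little. The number to be found without any pairing was not worked out. With the replicate block 0 members were called in each comparison, and 3 for the slope over all embryos, mt-Co1 being added (adjusted p = 0.0231). The share of all genes called with the block is not given here. The block took the genotype difference over all stages from 0.51 to 0.079 for mt-Nd3 and from -0.50 to -0.24 for mt-Atp6, and mt-Atp6 by sex from 0.32 to 1.08. Depth limits the 6 low members, of which mt-Atp8 had under 10 counts in 18 libraries.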
